A study of Mus musculus with 18 samples.

Results

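Trp63, Sox9, Tbx3 and Axin2 were grouped here as regulators of the basal and stem cells of the mouse mammary gland. The methylation of these 4 genes was followed through reproductive life in 18 bisulfite libraries. Each gene was represented by a fixed window on mouse genome build mm9: chromosome 16 from 25675 to 25900 kb for Trp63, chromosome 11 from 112630 to 112660 kb for Sox9, chromosome 5 from 120105 to 120145 kb for Tbx3 and chromosome 11 from 108770 to 108825 kb for Axin2. The members were the CpGs inside these windows with at least 5 reads in a library. There were 599 of them in any library, of 1476285 in the whole series, and 257 in all 18 libraries, of 711980. The windows were set by gene, and they were chosen with earlier results of these data known.

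Cells labelled as mammary epithelial stem cells, luminal progenitor cells and mature luminal cells (called stem, progenitor and mature here) were purified from digested glands of C57BL/6 females. Pregnant mice at days 10, 16 and 19, retired breeders and virgin mice of 3 and 9 weeks gave 1 library per cell type each. Every cell type therefore had 3 pregnant, 1 retired and 2 virgin libraries, and stages stood in as the replicates. The labels name neither the surface markers of the sort nor the number of animals, so p-values measure the spread between these libraries, part of which may be technical. Ages are labelled for the virgin mice alone, and age and pregnancy cannot be told apart.

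Trp63 encodes a transcription factor of the p53 family that marks and maintains the basal layer of many epithelia. Sox9 is a transcription factor of stem and progenitor cells in several glands, Tbx3 is a T-box repressor needed for the embryonic mammary placode, and Axin2 is a target of Wnt signalling that feeds back on the pathway by helping to degrade beta-catenin. Methylation of CpGs in a CpG-rich promoter is known to go with silencing of the gene, while CpGs elsewhere are mostly methylated in mammalian tissue, with lower levels at many active enhancers.

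Libraries were made by reduced representation bisulfite sequencing, in which DNA is cut at CCGG by the enzyme MspI, unmethylated cytosines are converted and the share of reads that still show a cytosine is the methylation level. Libraries held 17513287 to 117922522 reads over their CpGs and had a median depth of 10 to 70 reads. The pregnant stem libraries had medians of 29, 14 and 24 reads on days 10, 16 and 19, against 37 and 44 reads in the week 3 and week 9 virgin stem libraries. Depth thus moved with pregnancy in stem cells, and its part in the results below was not tested. The intervals given are 95% Wilson intervals. Reads can be copies of one molecule, so that they cover counting error only.

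The Axin2 promoter is shown first because it gives the clearest fixed point in the windows. The RefSeq sequence of the Axin2 promoter (build GRCm38.p6), 250 bases before to 50 after the start, has 31 CpGs. Their spacing was looked up among the CpGs listed by the files. At chr11:108781413-108781712 on mm9, plus strand, 26 listed CpGs fell on a CpG of the sequence and 0 fell beside one, while the next best position on the chromosome matched 5. The start of transcription was accordingly placed at 108781663. Capitals mark the 26 CpGs that the files list.

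Axin2 promoter: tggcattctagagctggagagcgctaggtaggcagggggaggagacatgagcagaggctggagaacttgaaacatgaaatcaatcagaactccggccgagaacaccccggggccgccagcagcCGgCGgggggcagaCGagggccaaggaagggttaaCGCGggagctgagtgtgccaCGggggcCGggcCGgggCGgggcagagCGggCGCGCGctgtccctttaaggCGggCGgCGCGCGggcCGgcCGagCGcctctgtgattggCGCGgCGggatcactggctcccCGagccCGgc

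Within these 300 bases the MspI site CCGG occurred 7 times, where 52.78% of 32851 RefSeq promoters of the same length hold it on either strand. The GC box GGGCGG, the letters bound by SP1, occurred 2 times on the plus strand, at 58 and 20 bases before the start (35.66% of promoters, either strand). Some GGGCGG letters overlap CpGs marked above. The core CTTTG of the TCF/LEF motif, through which Wnt signalling acts on its targets, had 0 matches on either strand in this window (53.93% of promoters hold it), and TATAAA had 0 (13.62%). For Trp63, Sox9 and Tbx3 no promoter was placed. Where exons and introns lie in the 4 windows was not analysed here.

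The 4 windows lay at different methylation levels in every library. Over the 5 shared CpGs of Trp63, all at 80% or more on average, the mean level was 92.8% ± 3.51 (SD over 18 libraries), with a lowest value of 84.8% in the day 19 pregnant progenitor library and a highest of 97.2% in the day 16 pregnant progenitor library. The 84 shared CpGs of Axin2 averaged 24.6% ± 1.13 (range 22.3 to 26.9%), a mixture of 56 CpGs under 10%, 13 between 10 and 80% and 15 at 80% or more. The 132 shared CpGs of Tbx3 averaged 15.0% ± 3.73 (range 8.38 to 21.6%), 80 of them under 10% and 52 between 10 and 80%. Sox9 was nearly free of methylation, with 1.502% ± 0.364 (range 0.990 to 2.28%) over 36 shared CpGs, 35 of them under 10%. The ranges of the 4 windows did not overlap for these means. With reads pooled over the shared CpGs those of Tbx3 (7.46 to 26.3%) and Axin2 (17.7 to 30.1%) did. These levels describe the CpGs read in each window, not the genes as a whole.

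**Figure D1:**
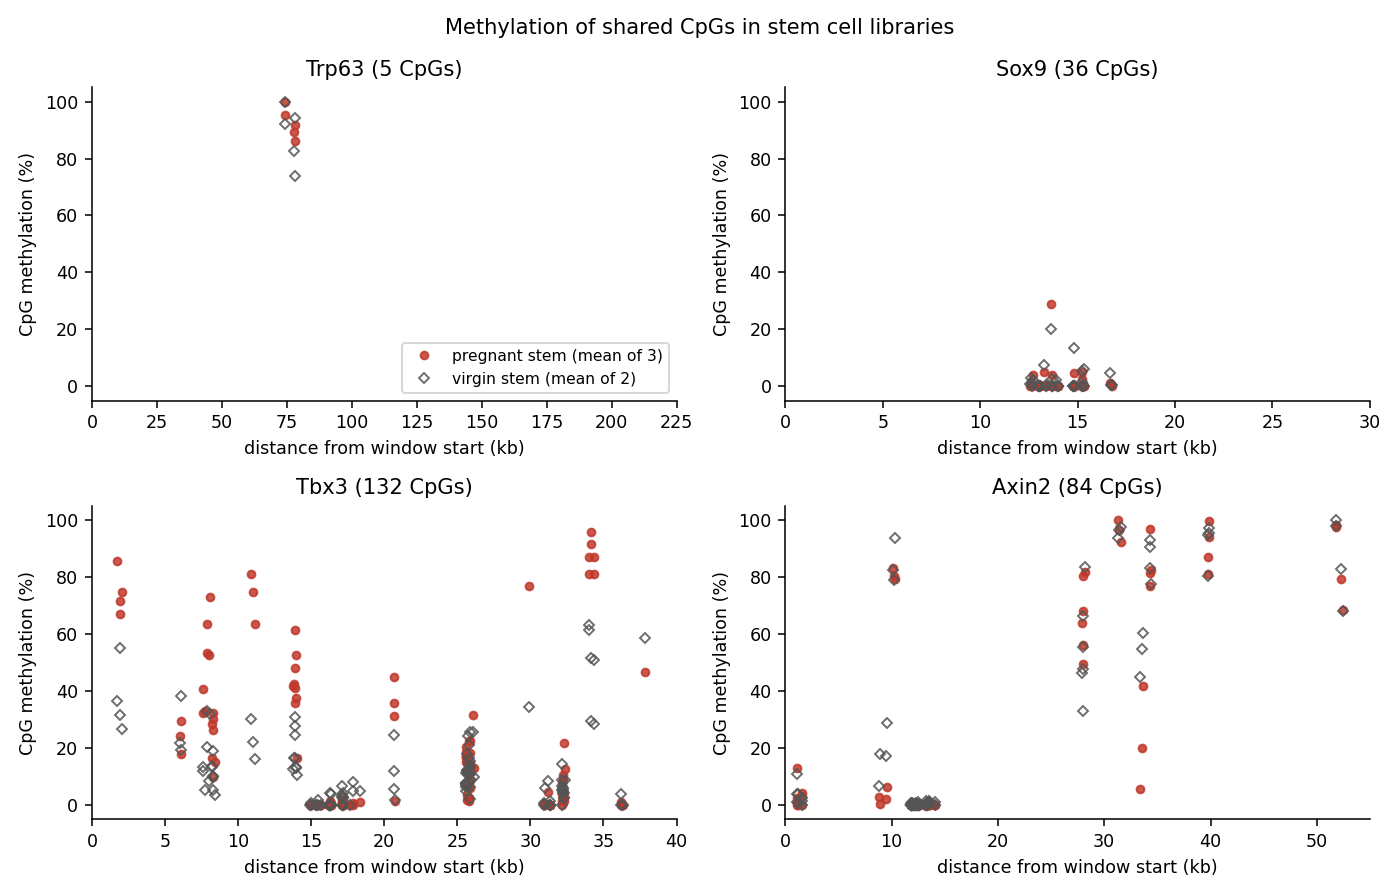
Mean methylation (%) of each CpG read in all 18 libraries, against its distance from the start of the gene's window (kb), in pregnant stem (filled, mean of 3 libraries) and virgin stem (open, mean of 2) libraries. The 5 Trp63 CpGs lie high, nearly all of the 36 Sox9 CpGs lie near 0, and in Tbx3 and Axin2 stretches near 0 alternate with stretches of middle or high methylation, where the filled and open symbols part in several places.

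Coverage of the windows was uneven. Trp63 had 7 to 13 CpGs with 5 reads per library, fewest in the day 19 pregnant stem and progenitor libraries. Sox9 had 59 to 96, Tbx3 171 to 227 and Axin2 153 to 255. The median depth of the shared CpGs was 12 to 121 reads in Trp63, 14 to 100 in Sox9, 14 to 104 in Tbx3 and 14 to 103 in Axin2, over the 18 libraries. For the tests, reads of shared CpGs were summed in tiles of 1000 bp with at least 3 of them. This gave 77064 tiles in the genome and 31 in the windows: 1 in Trp63, 5 in Sox9, 14 in Tbx3 and 11 in Axin2. A difference in a tile was called where it reached 10 percentage points with an adjusted p under 0.05 in a quasi-binomial logistic regression over all tiles.

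The first comparison was between pregnant and virgin mice within each cell type. In stem cells, 2 of the 31 tiles were called, both in Tbx3 and both higher in pregnancy. Over the genome 310 tiles were called in this comparison, which is 0.402% of all tiles, 83 of them higher and 227 lower. At an unadjusted p under 0.05 in the quasi-binomial model there were 9 tiles of the windows and 11046 of the genome (14.33%). In progenitor cells 0 tiles of the windows and 0 of the genome were called, with 1 tile of the windows and 2868 of the genome at an unadjusted p under 0.05. In mature cells the quasi-binomial model again called 0 and 0, with 0 and 3907 at an unadjusted p under 0.05. With limma, fitted to log2 ratios of the reads, 0 tiles were called in stem, progenitor and mature cells alike.

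**Figure D2:**
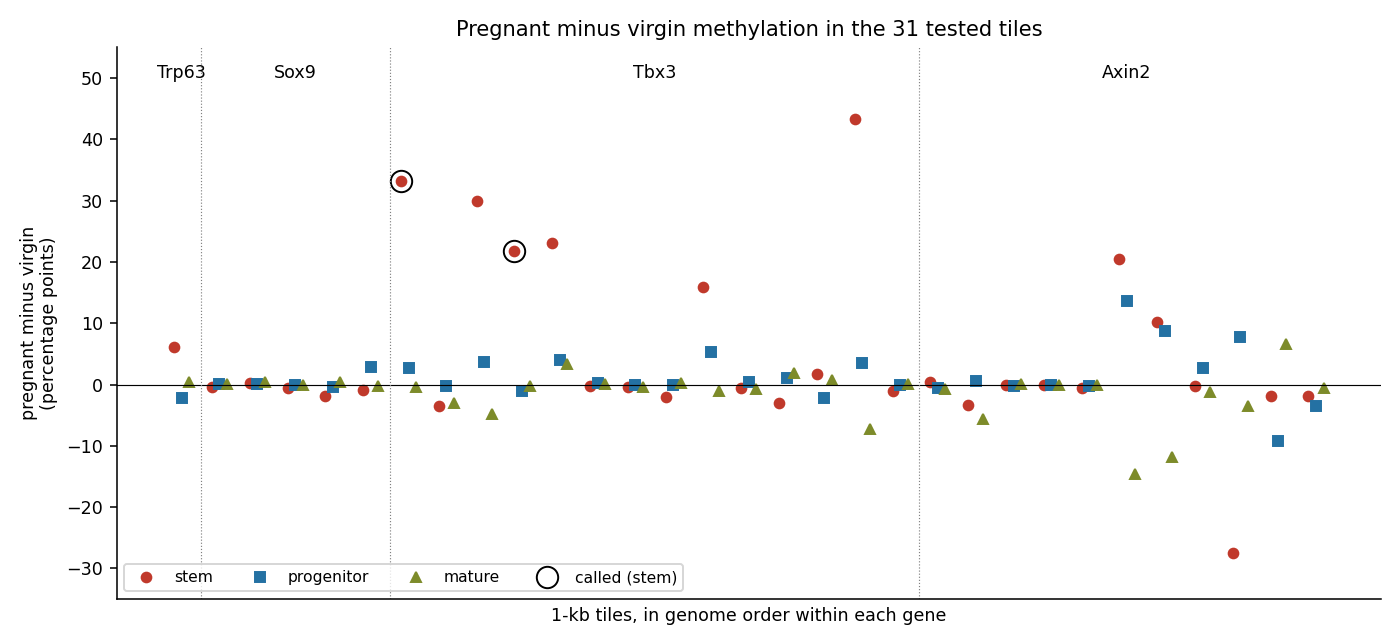
Pregnant minus virgin methylation (percentage points, means of 3 and 2 libraries) in the 31 tested tiles, in genome order within each gene, for stem, progenitor and mature cells. Rings mark the 2 tiles called in stem cells, both in Tbx3; the largest stem cell differences lie in Tbx3 and in the distal part of Axin2, and the tiles of Sox9 lie near 0.

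The called tile nearer the start of the Tbx3 window lies on chromosome 5 from 120106001 to 120107000 and holds 3 shared CpGs. Pregnant stem libraries had 64.2%, 79.5% and 70.6% methylation there on days 10, 16 and 19, against 44.0% and 32.6% in the week 3 and week 9 virgin stem libraries. All pregnant stem libraries lay above both virgin ones, by 33.2 points (71.4% ± 7.68, n = 3, against 38.3% ± 8.06, n = 2, SD; quasi-binomial model, adjusted p = 0.0426). Pregnant progenitor libraries had 71.3%, 58.0% and 59.5%, against 67.1% and 53.4% in virgin progenitor libraries. Pregnant mature libraries had 72.8%, 67.3% and 68.3%, against 66.4% and 73.3% in virgin mature libraries. In both luminal cell types the groups overlapped, and the virgin stem libraries were the lowest of all 18. The tile had 57 to 412 reads per library, and its widest interval was 12.5 points to either side.

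The other called tile lies from 120113001 to 120114000 and holds 9 shared CpGs. Pregnant stem libraries had 39.2%, 33.6% and 28.3% methylation, against 14.0% and 10.0% in virgin stem libraries. They again lay above both virgin ones, by 21.7 points (33.7% ± 5.46, n = 3, against 12.0% ± 2.81, n = 2; quasi-binomial model, adjusted p = 0.0426). Progenitor libraries had 10.3%, 13.4% and 11.6% in pregnancy, against 14.8% and 10.7% in virgin mice. Mature libraries had 20.3%, 12.5% and 8.30% in pregnancy, against 10.8% and 17.1% in virgin mice. Here the pregnant stem libraries were the ones that stood out, with the 3 highest values among pregnant and virgin libraries of any cell type.

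The tile between them and next to the second, from 120112001 to 120113000 with 5 shared CpGs, showed the same order in stem cells but missed the call. Pregnant stem libraries had 55.3%, 49.2% and 33.1%, against 14.7% and 17.3% in virgin stem libraries. The difference of 29.9 points had an adjusted p of 0.0517 in the quasi-binomial model. Progenitor libraries lay between 12.5% and 28.1% and mature libraries between 12.4% and 30.7% over all 6 stages, so that the pregnant stem libraries were higher than every luminal library. The most variable tile of the window, from 120139001 to 120140000 with 5 shared CpGs, had 90.3%, 92.2% and 85.2% in pregnant stem libraries, against 61.7% and 30.2% in virgin stem libraries. That difference of 43.3 points was the largest of the 31 tiles in stem cells, and with the virgin libraries far apart it did not pass (adjusted p = 0.148, quasi-binomial model). In mature cells the same tile had 84.8%, 87.2% and 30.2% in pregnancy, against 76.8% and 72.4% in virgin mice, the day 19 library being far below the other 4.

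**Figure D3:**
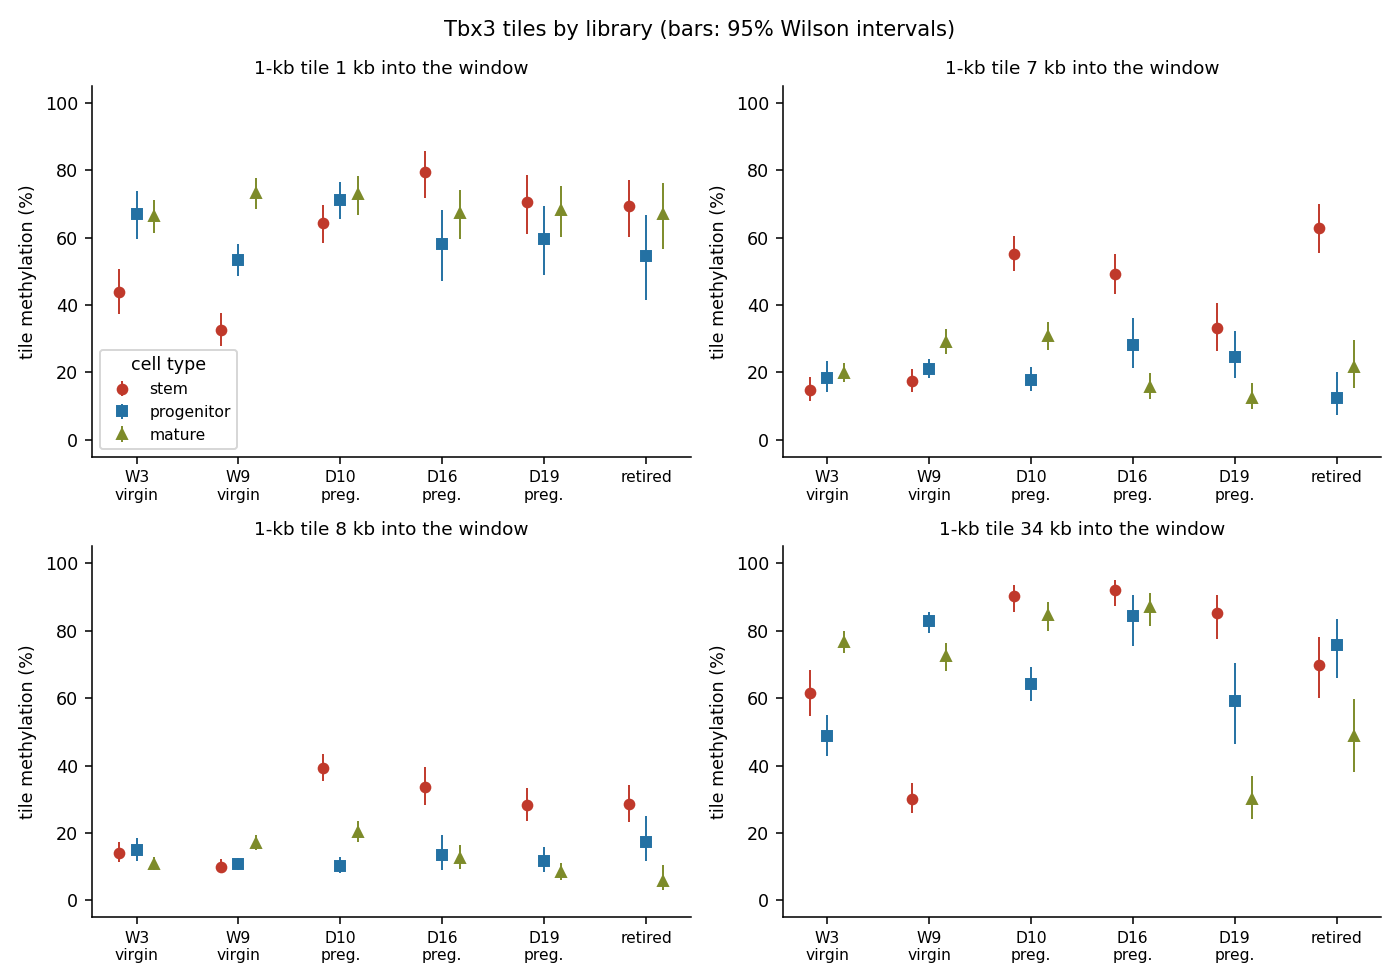
Methylation (%) of 4 Tbx3 tiles in each library, by stage, for stem (circles), progenitor (squares) and mature (triangles) cells; bars are 95% Wilson intervals. In the tiles 1, 7 and 8 kb into the window the pregnant and retired stem libraries lie above the virgin stem libraries, and in the tile 34 kb into it the week 9 virgin stem and day 19 pregnant mature libraries lie lowest, near 30%.

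Whether stem cells differed from luminal cells in their pregnancy effect was tested directly. At the tile from 120106001 the effect in stem cells exceeded that in progenitor cells by 30.5 points (quasi-binomial model, adjusted p = 0.352) and that in mature cells by 33.5 points (adjusted p = 0.163). At the tile from 120113001 the excess was 22.7 points over progenitor cells (adjusted p = 0.242) and 22.0 points over mature cells (adjusted p = 0.171). No difference between cell types in the pregnancy effect was therefore shown for either tile. In the whole table these tests called 0 tiles, with 8078 and 8828 at an unadjusted p under 0.05, and limma also called 0.

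Both calls were close to the threshold. They were lost without the week 9 virgin stem library, where the differences were 27.5 and 19.7 points (adjusted p = 0.399 and 0.384), and without the day 10 or day 16 pregnant stem library (adjusted p = 0.123 to 0.248). The call from 120106001 was also lost without the day 19 pregnant stem library (33.6 points, adjusted p = 0.0565). Leaving out the day 16 mature library, or any of the 5 pregnant or virgin progenitor libraries, changed no stem cell value and moved the adjusted p of both tiles to between 0.0533 and 0.0666 through the spread that all libraries share in the model. Within the 11 libraries whose files have 4 columns, a subset set after the data were seen, the differences were 33.6 points (adjusted p = 0.0895) and 24.4 points (adjusted p = 0.0470).

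The rest of the Tbx3 window was divided between stretches near 0 and stretches of middle methylation. Stem cell groups did not overlap and differed by at least 10 points in 5 of the 14 tiles, all higher in pregnancy, and in 7 higher and 1 lower of the 31 tiles of the 4 windows. Over the genome 2.55% of tiles met this rule on the higher side and 6.86% on the lower side. The fifth Tbx3 tile, from 120118001 to 120119000, had 34.8%, 42.1% and 58.8% in pregnant stem libraries, against 28.5% and 15.7% in virgin stem libraries (23.1 points, quasi-binomial model, adjusted p = 0.328). In progenitor cells 1 of the 31 tiles met it, in Axin2 and on the higher side, where 1.02% of all tiles met it as higher and 0.472% as lower. In mature cells 0 of the 31 met it, where 0.348% of all tiles were higher and 0.537% lower. Between 120120001 and 120123000, 3 adjoining tiles with 32 shared CpGs were nearly unmethylated, with at most 3.21% in any library. The tiles from 120136001, 120137001 and 120141001 averaged 1.67%, 7.59% and 0.415%.

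Across the whole Tbx3 window the levels followed the same order in stem cells. Pregnant stem libraries averaged 18.1%, 21.0% and 21.6%, against 14.1% and 9.54% in virgin stem libraries. All 3 lay above both, by 8.39 points (20.2% ± 1.90 against 11.8% ± 3.23). With 3 libraries against 2 the exact permutation test cannot go below p = 0.1, which is the value it gave (two-sided, adjusted p = 0.556 over 32 window tests). Progenitor libraries averaged 15.4% ± 2.29 in pregnancy, against 14.1% ± 3.13 in virgin mice, and mature libraries 13.3% ± 4.42, against 13.7% ± 0.482, with overlapping groups in both.

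Some single CpGs of Tbx3 differed by more than any tile, although none of the 257 shared CpGs, and 0 of 711980 in the genome, passed the same quasi-binomial test at single sites, an analysis added after the data were seen (55708 CpGs, 7.82%, had an unadjusted p under 0.05). The CpG at 120116041, which lies in no tested tile, averaged 74.8% in pregnant stem libraries, against 22.0% in virgin stem libraries. At 120106695 the averages were 85.8% in pregnant stem libraries and 36.7% in virgin stem libraries, and at 120113035 they were 52.6% and 8.30% in the same order. The adjusted p was 0.389 at each of these sites.

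Axin2 had an almost unmethylated promoter in every library with reads there, and its larger stem cell differences lay far from it. At the promoter CpGs marked above, counting those with 5 reads, 16 libraries had data, with 84 to 1178 reads each, and the methylated share was between 0 and 0.414%. The day 19 pregnant stem library had 0 methylated of 560 reads, which allows a share of up to 0.536%. The week 9 virgin stem library had 0 of 658, which allows up to 0.456%. These limits take 3 counts as the most that a count of 0 allows and are not Wilson intervals. Day 16 pregnant mature and retired mature libraries had no promoter CpG with 5 reads. The tile that holds the start, from 108781001 to 108782000 with 12 shared CpGs, was read in all 18 libraries and averaged 0.0632%, with at most 0.368%. The next tiles downstream stayed low, at most 0.772% from 108782001 and at most 3.75% from 108783001, both in the retired mature library. Upstream, the tile from 108780001, whose middle lies 1.16 kb before the start, averaged 79.99% over its 3 shared CpGs and was at least 60.8% in every library. No CpG with 5 reads lay between 108780303 and 108781536, so levels next to the promoter on this side were not measured. Farther upstream low levels returned, with 0 to 23.6% at the CpG 108779506 and 0 to 36% at 108779565 over the 18 libraries.

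Inside the window, beyond the start, middle methylation appeared in 3 Axin2 tiles. The most variable, from 108797001 to 108798000 with 3 shared CpGs, has its middle 15.8 kb from the start. Pregnant stem libraries had 61.6%, 64.8% and 68.7% there, against 54.2% and 34.8% in virgin stem libraries. They lay above both, by 20.5 points (65.0% ± 3.51, n = 3, against 44.5% ± 13.7, n = 2), and the difference did not pass (quasi-binomial model, adjusted p = 0.291). Mature libraries had 40.1%, 15.7% and 35.3% in pregnancy, against 37.4% and 52.5% in virgin mice. The excess of the stem cell effect over the mature one was 35.1 points (adjusted p = 0.251). In progenitor cells the groups also did not overlap, with 52.9%, 35.8% and 55.7% in pregnancy, against 34.7% and 34.5% in virgin mice. The neighbouring tile from 108798001 to 108799000 had 74.4%, 78.2% and 77.5% in pregnant stem libraries, against 64.6% and 68.4% in virgin stem libraries, the same order at a smaller distance.

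The tile from 108803001 to 108804000, 21.8 kb from the start with 3 shared CpGs, went the other way. Pregnant stem libraries had 18.6%, 22.9% and 38.9%, against 49.5% and 58.9% in virgin stem libraries. They lay below both, by 27.4 points (26.8% ± 10.7 against 54.2% ± 6.68; difference -27.42, adjusted p = 0.134 with the quasi-binomial model), the only tile of the 4 windows lower by 10 points or more without overlap. Among its CpGs, the one at 108803352 averaged 5.54% in pregnant stem libraries, against 45.0% in virgin stem libraries. Progenitor libraries had 39.0%, 45.5% and 40.7% in pregnancy, against 29.3% and 38.7% in virgin mice. Mature libraries had 33.3%, 12.5% and 48.1% in pregnancy, against 41.3% and 28.3% in virgin mice. The tile had only 27 to 206 reads per library and intervals of up to 17.4 points to either side.

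**Figure D4:**
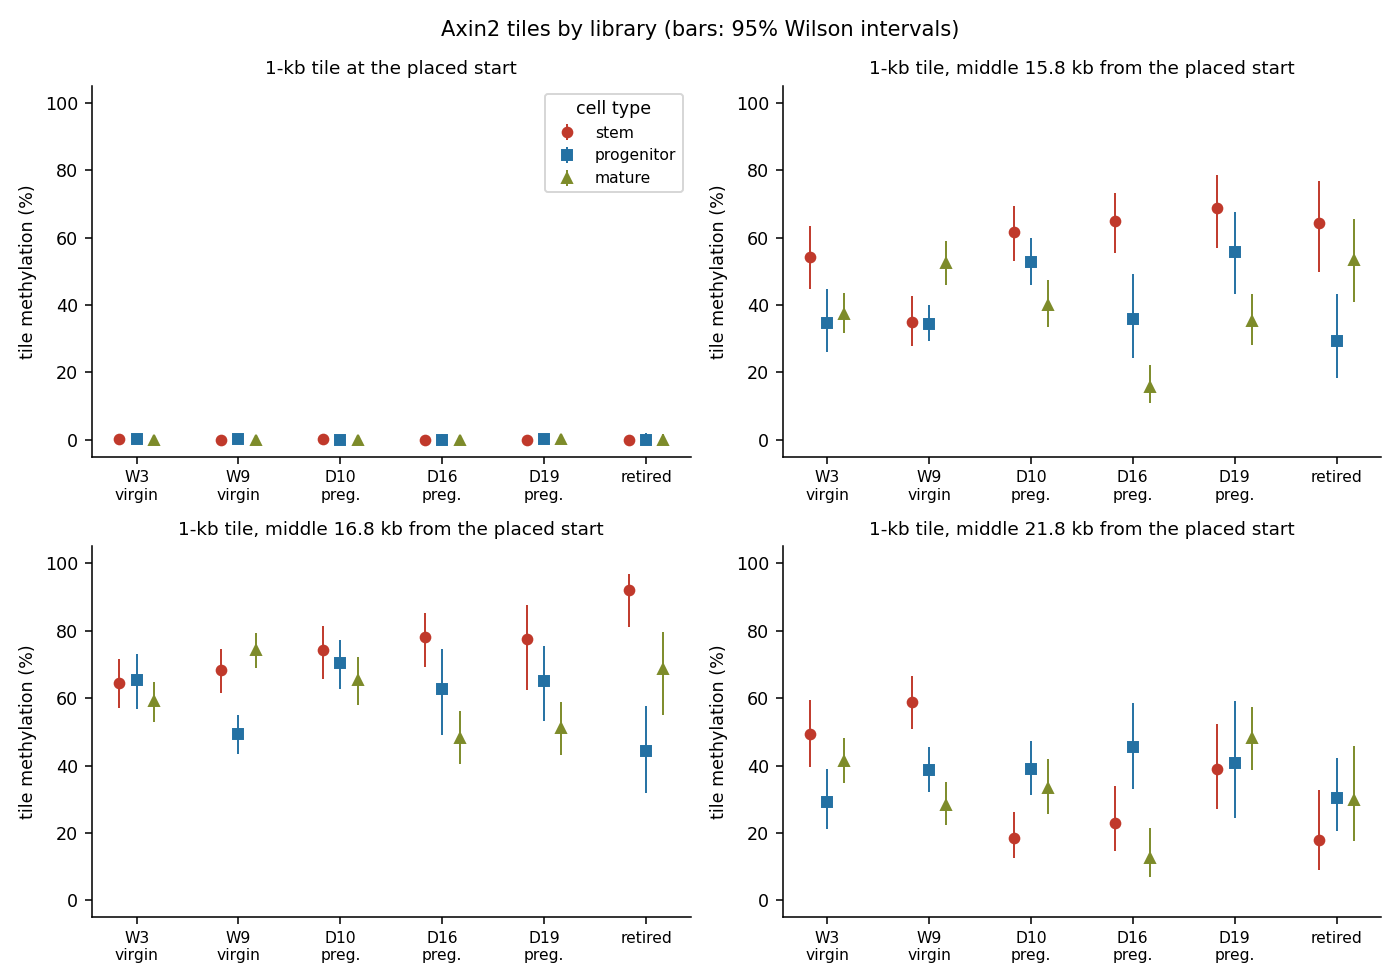
Methylation (%) of 4 Axin2 tiles in each library, by stage, for stem (circles), progenitor (squares) and mature (triangles) cells; bars are 95% Wilson intervals. The tile at the placed start lies at 0 to 0.368% in all 18 libraries, while in the tile 15.8 kb from the start pregnant stem libraries lie above and in the tile 21.8 kb from it below the virgin stem libraries.

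Other distal Axin2 tiles were highly methylated. The tile from 108801001 averaged 96.4%, that from 108804001 84.6% and that from 108809001 92.0%, and the first tile of the window, from 108771001, averaged 2.86%. The window as a whole lay at 24.8% ± 0.505 in pregnant stem libraries, against 26.2% ± 1.05 in virgin stem libraries (-1.42 points), and at 23.6% ± 0.749 in pregnant mature libraries, against 25.1% ± 0.479 in virgin mature libraries (-1.52 points). In both cell types all pregnant libraries lay below both virgin ones (exact permutation p = 0.1 each, the smallest possible, adjusted p = 0.556). The direction turned when the reads of the shared CpGs were pooled, to 23.1% in pregnant against 22.4% in virgin stem libraries and 22.3% in pregnant against 21.2% in virgin mature libraries. With every CpG of 5 reads it turned in mature cells only (24.2% against 23.7%). Progenitor libraries overlapped, with 24.0% ± 1.55 in pregnancy and 23.7% ± 0.381 in virgin mice.

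Trp63 was the most methylated window and the one with the fewest CpGs. Its 1 tested tile, from 25752001 to 25753000 on chromosome 16 with 3 shared CpGs, had 88.0%, 86.8% and 93.6% in pregnant stem libraries, against 84.4% and 82.2% in virgin stem libraries (quasi-binomial model, adjusted p = 0.564). All pregnant stem libraries lay above both virgin ones by a small margin. At any size of difference the stem cell groups did not overlap in 26.08% of all tiles, with 6211 above and 13891 below. Progenitor libraries had 93.1%, 96.2% and 79.5% in pregnancy, against 89.1% and 94.3% in virgin mice, and mature libraries 95.4%, 95.2% and 93.4%, against 95.7% and 92.8%. The tile had 24 to 336 reads per library. Over the 5 shared CpGs the stem cell difference was 4.02 points (92.5% ± 1.67 against 88.5% ± 1.72, exact permutation p = 0.1, the smallest possible). The direction turned when every CpG with 5 reads counted, with means of 76.9% in pregnant and 81.4% in virgin stem libraries.

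The widest spread in Trp63 was found at CpGs outside that tile that some libraries did not cover, and they were described without a test. At 25835991 pregnant stem libraries had 7 methylated of 50 reads on day 10, 3 of 31 on day 16 and 0 of 3 on day 19, against 37 of 40 and 29 of 46 in the week 3 and week 9 virgin stem libraries. On days 10 and 16 these are 14.0% (interval 6.95 to 26.2%) and 9.68% (3.35 to 24.9%), below the virgin values of 92.5% (80.1 to 97.4%) and 63.0% (48.6 to 75.5%). The retired stem library had 7 of 25 reads, 28.0%. Progenitor libraries with 5 reads or more ran from 20% to 83.7% and mature libraries from 29.4 to 92.1%, with no order by stage. At the CpG 25836119 the stem cell groups overlapped: pregnant stem libraries had 13 of 57 and 12 of 50 reads on days 10 and 16, against 15 of 29 and 7 of 33 in virgin stem libraries. At 25842532, with 5 reads in only 10 libraries, the range was wider (16.7 to 100%), and pregnant stem libraries had 8 of 18 and 2 of 12 reads on days 10 and 16, against 2 of 2 and 7 of 7 in the week 3 and week 9 virgin stem libraries. The CpGs at 25749103 and 25749197 were at 86.8% or more in all 18 libraries.

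**Figure D5:**
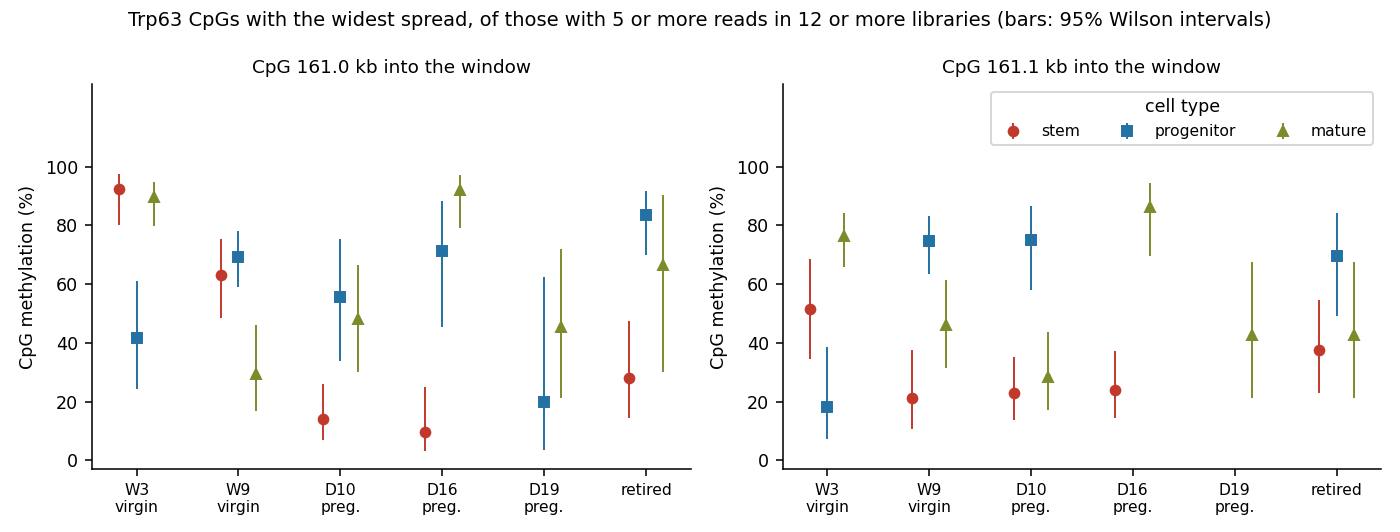
Methylation (%) of the 2 Trp63 CpGs with the widest spread among those with 5 reads in at least 12 libraries, by stage, for stem (circles), progenitor (squares) and mature (triangles) cells; bars are 95% Wilson intervals. At the first CpG (left) the day 10 and day 16 pregnant stem libraries lie at 14.0% and 9.68%, below the virgin stem libraries, and at the second (right) the stem cell groups overlap.

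Sox9 stayed near 0 in every state and cell type. Its 5 tiles, from 112642001 to 112647000 on chromosome 11, averaged 0.983%, 1.83%, 0.222%, 0.674% and 1.26%. The most variable was the last of them, with 3 shared CpGs, where the day 16 pregnant progenitor library had 10.5% and the other 17 libraries had at most 2.78%. In the tile from 112645001, the next most variable, the highest value was 3.94%, in the week 9 virgin stem library. No Sox9 tile differed by 10 points between pregnant and virgin libraries in stem, progenitor or mature cells. The shared CpGs of the window lay at 1.61% ± 0.368 in pregnant stem libraries, against 2.05% ± 0.330 in virgin stem libraries (exact permutation p = 0.3). When each library contributed every CpG with 5 reads, the Sox9 level was 8.57% on average (7.28 to 10.8%), so that the CpGs not shared by all libraries were the more methylated ones.

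The retired stem library, from breeders that had been pregnant before, was set against both groups. In Tbx3 the retired stem library had 69.4% in the tile from 120106001, 28.5% in the tile from 120113001 and 62.9% in the tile from 120112001. These lay nearer to the pregnant stem means of 71.4%, 33.7% and 45.9% than to the virgin stem means of 38.3%, 12.0% and 16.0%. In the tile from 120139001 it had 69.8%, with 89.2% in pregnant and 45.9% in virgin stem libraries. In the tile from 120111001, by contrast, it had 54.0%, above the pregnant mean of 22.4% and the virgin mean of 25.9%. In Axin2 it had 64.4% in the tile from 108797001 and 17.9% in the tile from 108803001, again nearer to the pregnant means of 65.0% and 26.8%. There was 1 retired library per cell type, so this has no replicate check. The tiles from 120106001 and 120113001 were named because pregnant and virgin stem libraries differed there. In the first, the retired mature library (67.1%) was nearer to the pregnant stem mean and the retired progenitor library (54.4%) to the virgin one. In the second, both (5.88% and 17.4%) were nearer to the virgin one. The tiles from 120112001, 120139001, 108797001 and 108803001 were named for their spread over all 18 libraries. At 108803001 the retired mature (29.7%) and retired progenitor (30.3%) libraries were both nearer to the pregnant stem mean. Both were nearer to the virgin one at 108797001 (53.3% and 29.2%) and 120112001 (21.6% and 12.5%). At 120139001 mature (48.7%) was nearer to the virgin and progenitor (75.8%) to the pregnant mean. The share of all tiles with the retired stem library nearer to the pregnant mean was not computed. Over the 3 cell types the quasi-binomial model called 0 tiles between retired and virgin libraries, in the windows and in the genome, with 1 and 4063 at an unadjusted p under 0.05. limma called 0 in the windows and 38 in the genome.

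The cell types were compared within stages. For stem against progenitor, stem against mature and progenitor against mature cells 0 tiles were called by the quasi-binomial model, in the windows and in the genome, and 0 by limma. At an unadjusted p under 0.05 there were 7, 10 and 6 of the 31 tiles, and 7198, 8519 and 4608 of all tiles. The stem library was above the mature one in every stage in 2 of the 31 tiles, both in Tbx3, and below it in 1, where 1.18% and 2.44% of all tiles had these orders. In the tile from 120130001, with 25 shared CpGs, the stem library was above the mature library in 6 of 6 stages, by 8.25 points on average (11.5% ± 4.76 against 3.27% ± 1.30, n = 6 each, quasi-binomial model, adjusted p = 0.154). In the tile from 120125001 it was higher in 6 of 6 stages as well, by 15.1 points (22.4% ± 11.8 against 7.32% ± 2.46, adjusted p = 0.171). In the Axin2 tile from 108809001 the stem library was lower in every stage, with a mean difference of -3.29 points (90.4% ± 3.22 against 93.7% ± 2.99, adjusted p = 0.395). Stem was above progenitor in every stage in 1 tile, the Axin2 tile from 108797001, by 17.6 points (58.1% ± 12.4 against 40.5% ± 11.0, quasi-binomial model, adjusted p = 0.585), and below it in 0, where 1.29% and 2.24% of all tiles had these orders. Progenitor was above mature in every stage in 0 tiles and below it in 1, the Axin2 tile from 108783001 with means of 0.0882% and 1.05%, where the shares of all tiles were 1.05% and 1.28%. Over whole windows the largest differences were Tbx3 in stem against mature cells, 4.38 points and higher in 5 of 6 stages (17.3% ± 4.63 against 12.9% ± 3.13), and Tbx3 in stem against progenitor cells, 2.42 points and also higher in 5 of 6 (17.3% ± 4.63 against 14.9% ± 2.11). Exact permutation within stages gave p = 0.156 and 0.25, and no window passed after adjustment (smallest adjusted p = 0.556).

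Other genes of these pathways and of the cell types were looked at where their RefSeq promoter could be placed on mm9 in the same way. Of 90 listed genes, 59 had a promoter sequence, 21 were placed and 18 had at least 3 shared CpGs. The neighbours among the placed promoters kept the order of the gene table in all 15 pairs. These include the promoter of Tbx3os2, which was accepted only inside the Tbx3 window, so its order was fixed in advance. Of the 18, 16 had a mean promoter level under 10% and the median was 0.304%. Placing needed at least 6 matched CpGs, so promoters with few CpGs read were left out. The share of all promoters under 10% was not computed. Genes of the Wnt list, the Sox list and the p53 list had medians of 0.316% (4 measured), 0.341% (3) and 0.0520% (3). The lowest was Jag1, a Notch ligand, at 0%. Tcf7, a Wnt effector with 2 placed promoters, had 0.0130% and 0.648%. The highest were Tbx1, another T-box factor, at 56.8%, and Prom1, placed on the luminal progenitor list here, at 10.0%. Tbx1 had 65.5% in pregnant stem libraries, against 40.1% in virgin stem libraries, and its tiles did not pass (smallest adjusted p = 0.173, quasi-binomial model). In the 20 listed genes with a tested tile at the promoter, 0 were called in any comparison. The 4 basal markers that could be placed (Itgb1, Id4, Vim and Oxtr) had a median of 0.133%, and the 1 mature luminal marker, Gata3, 0.0604%. These 5 marker promoters were near 0 in all cell types and gave no check of the labels. Prom1 averaged 13.5% in stem libraries, 9.34% in progenitor libraries and 7.26% in mature libraries. It was higher in stem than in progenitor cells in 6 of 6 stages, an order that 1.29% of all tiles had. That share is for reads summed in 1000 bp tiles, not for means over promoter CpGs, and the share of promoters was not computed. The gap was small on day 19 (10.4% against 9.49%) and in retired breeders (14.8% against 13.7%). The stem libraries (10.4 to 17.2%) did not overlap the mature ones (5.00 to 9.96%). This promoter was picked after its values were seen, and the share of all promoters or tiles without such overlap was not computed.

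For the most variable tile of each gene, the tiles elsewhere in the genome with the most similar profile over the 18 libraries were found by Pearson's r, given as a description. The Tbx3 tile from 120139001 was most like tiles on chromosome 17 from 44577001 (r = 0.938), chromosome 11 from 4473001 (r = 0.927) and chromosome 9 from 40181001 (r = 0.921). The first of these averaged 91.9% in pregnant stem libraries and 47.8% in virgin stem libraries. The Axin2 tile from 108797001 was most like tiles on chromosome 2 from 126967001 (r = 0.929), chromosome 13 from 56204001 (r = 0.926) and chromosome 15 from 37085001 (r = 0.912). These 3 had 71.8%, 62.1% and 65.9% in pregnant stem libraries, against 36.2%, 40.2% and 38.7% in virgin stem libraries. The Trp63 tile was most like a tile on chromosome 2 from 60578001 (r = 0.867). For Sox9 the closest, on chromosome 6 from 82352001 (r = 0.965), shares the single high value of the day 16 pregnant progenitor library. Tiles picked for a similar profile share its order by selection, so these values give no separate support for any difference. All values share the libraries and their depth.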

How the data were processed

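Bisulfite libraries were made after MspI digestion (labels' protocols). For each CpG the deposited files give a count pair, methylated over all reads. The build is mm9, per the submitters' processing notes. Alignment, calling and read filters: not given in the sources used here. For 7 of the 18 files (day 16 progenitor, all day 19 and all retired libraries) a score and a strand stand beside the counts and were not used; stage, layout and depth cannot be told apart for them.

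The windows, gene lists and tests were chosen with earlier results of these data known. CpGs with 5 reads in all 18 libraries were summed in 1000 bp tiles of at least 3 CpGs. Each tile was fitted by quasi-binomial logistic regression over all 18 libraries, with dispersion moderated across tiles and held at 1 or above, a deviance F test and p-values adjusted by Benjamini-Hochberg over 77064 tiles in each of 10 comparisons. Pregnancy and retirement used a model of 9 groups of cell type by state, cell types a model with stage. Window means were tested by two-sided exact permutation of libraries, within cell type or stage, and adjusted over 32 tests. Every tile of the windows was accounted for; those at a placed promoter and the 2 most variable per gene were named by rule, as were called tiles, and others were named after their values were seen. A promoter was placed where at least 6 listed CpGs matched its RefSeq sequence, with 0 beside and at least 2 more than elsewhere on the chromosome. The Tbx3os2 promoter was an exception, taken inside the Tbx3 window with 5 matched CpGs against 4 at the next best position. The tests were tried on simulated counts. Alternatives were 10 reads, 500 bp tiles, 20 points, any CpG with 5 reads, removal of the deepest 1% of CpGs, limma on log2 ratios with 1 added, no stage term and leaving out each library; single CpGs and the 4-column files were added later. Software was R 4.3.3 with limma 3.58.1, and Python 3.11.15 with numba 0.67.0, pandas 2.3.3, numpy 2.4.6, matplotlib 3.10.9 and scipy 1.17.1.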

Additional observations from a re-analysis of the deposited data

Results flagged for a closer look

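The Axin2 tile from 108803001 to 108804000 was flagged because the pregnant libraries lay on opposite sides of the virgin ones in 2 cell types. Every pregnant stem library was lower than either virgin one there (difference -27.42 points), while every pregnant progenitor library was higher than either virgin one (difference 7.73 points). Over the genome, at any size, pregnant stem libraries lay below both virgin ones in 13891 of 77064 tiles. Pregnant progenitor libraries lay above both virgin ones in 6079 tiles. The share of all tiles with both orders was not computed. The progenitor order rested on 39.0% on day 10 against 38.7% in week 9 virgin mice, closer than the counting error, and that difference did not pass (quasi-binomial model, adjusted p = 1). Stem minus progenitor effect came to -35.15 points. In the direct test with the quasi-binomial model this missed the threshold (adjusted p = 0.333). The 3 shared CpGs had 27 to 206 reads per library. No group held the 4 libraries needed to test for a single outlying one.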

How the results depend on the processing

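Of 1652 alternative values for 85 results, 1572 had the same direction and call as reported or, for counts, lay within a factor of 1.5. The 2 Tbx3 tiles called in pregnant against virgin stem cells became 0 with limma, 0 with 10 reads (13 tiles left to test), 0 in 500 bp tiles (33 tested) and 0 at single CpGs (257 tested, added after the data were seen); for limma and the 500 bp tiles the cause was not tested. Leaving out 1 library gave 0 to 3. With limma the adjusted p was 0.0875 from 120106001 and 0.130 from 120113001, and with 10 reads the tile from 120113001 differed by 20.4 points (adjusted p = 0.0677). The tile from 120112001 passed with any CpG of 5 reads (adjusted p = 0.0458) and without either virgin mature, the day 10 or day 19 mature or the day 19 stem library. The test of stem against mature pregnancy effects gave 0 to 2 tiles of the windows, the 2 being those from 120112001 and 120113001 without the week 3 virgin mature library. Over the genome the 310 calls became 0 with limma, 78 with 10 reads, 108 in 500 bp tiles and 468 with any CpG, and 0 to 1589 with 1 library left out: 0 or 1 without the day 10 or day 16 pregnant or the week 9 virgin stem library, 16 to 45 without a pregnant or virgin progenitor or the day 16 mature library, and 710 to 1589 without the day 19 or a virgin mature or the week 3 virgin stem library. A lone virgin library is then assumed to vary like the other groups. Of 396 alternative window differences 58 changed sign, in 22 of 32 results, none of which passed a test. The labels give no replicate numbers to use as a block; stage was the block between cell types, while pregnant and virgin libraries share no stage. Exact permutation tests of pregnancy on window means within a single cell type cannot go below p = 0.1 and say nothing about stability. Over all cell types, with 9 pregnant and 6 virgin libraries, the exact permutation test can reach p = 0.001. The exact permutation test over all cell types gave p = 0.115 for Tbx3, 0.117 for Axin2, 0.358 for Sox9 and 0.468 for Trp63. Depth limits single tiles, with intervals of up to 17.4 points to either side.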
